A study of Arabidopsis thaliana with 31 samples.

Results

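Single cells of the quiescent center (QC) of the *Arabidopsis thaliana* root were compared by their level of *SCARECROW* (*SCR*, AT3G54220), a transcription factor gene. The 20 QC cells were grouped by that level itself. In 11 cells, called high SCR here, *SCR* was at 10 FPM or more, and in 9 cells, called low SCR, it was below that, where FPM stands for reads per 1000000 reads of a library. The series holds 31 libraries in all: these 20 cells, 4 aliquots of 1 lysed pool of QC cells, which show the technical error, and 7 stele cells, in which *SCR* was at 0 throughout. Both groups of QC cells came from Col-0 roots carrying the *WOX5:GFP* reporter, which marks the QC, from seedlings that the labels put at 6 DAS, while the methods put the harvest at 5 days after stratification. The seedlings had no treatment other than the digestion of cell walls, and each fluorescent cell was drawn up with a glass pipette and its mRNA amplified. QC cells were collected in 4 batches, but no source used here ties a cell to a plant or to a batch, so that batch, set of libraries and *SCR* level cannot be told apart. Therefore, cells were not taken as replicates of plants and differences were not tested. Medians, ranges and counts over cells describe these libraries.

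The QC is a small group of slowly dividing cells at the root tip that keeps the stem cells around it undifferentiated. *SCR* encodes a GRAS transcription factor made in the QC, the endodermis and the stem cells between them. It acts with SHORTROOT (SHR), a GRAS protein that is transcribed in the stele and moves outward into the adjacent layer, where BIRD zinc-finger proteins such as JACKDAW (JKD) bind both. Without *SCR* the QC loses its identity and the stem cells are not maintained.

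Median library totals were close, but the deepest libraries were not evenly divided. High SCR cells had 12270647 to 115114702 reads with a median of 16393579, and low SCR cells had 12071810 to 72145275 with a median of 17085753. High SCR cells 14, 19 and 20 had 115114702, 100463749 and 93606126 reads, whereas among low SCR cells only cell 16 had more than 28184662. Beyond thinning all libraries to the lowest total, the part of depth in the differences below was not tested. More genes reached 10 FPM in high SCR cells, with 2076 to 5113 and a median of 3986, against 1449 to 4130 and a median of 2817 in low SCR cells. QC cells 3 and 4, both low SCR, had the fewest, 1456 and 1449. With every library thinned to 12071810 reads, the number of genes above 0 was 4635 to 9972 with a median of 6450 in high SCR cells, and 4850 to 7955 with a median of 5640 in low SCR cells.

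The libraries were not independent in their gene lists. In several cells the genes above 0 were all contained in the list of 1 other cell, which defines sets of libraries, and a gene abundant in 1 cell of such a set was often listed at less than 1 FPM in the others. The set of QC cell 1 held 2 high SCR cells (8 and 13) and 5 low SCR cells (1, 9, 10, 11 and 12). The set of QC cell 2 held 4 high SCR cells (2, 5, 6 and 7) and 2 low SCR cells (3 and 4). The set of QC cell 14 held 3 cells (14, 19 and 20), all high SCR. Cells 15 and 16, both low SCR, and cells 17 and 18, both high SCR, formed nearly alike pairs: the median chi-square per gene between the reads of a pair was 2.38 for the pair with cell 15 and 2.41 for the pair with cell 17, against 184 for the next closest pair. Only in the sets of QC cell 1 and QC cell 2 could high and low SCR cells be set against each other, and elsewhere the set and the *SCR* level cannot be told apart.

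**Figure D1:**
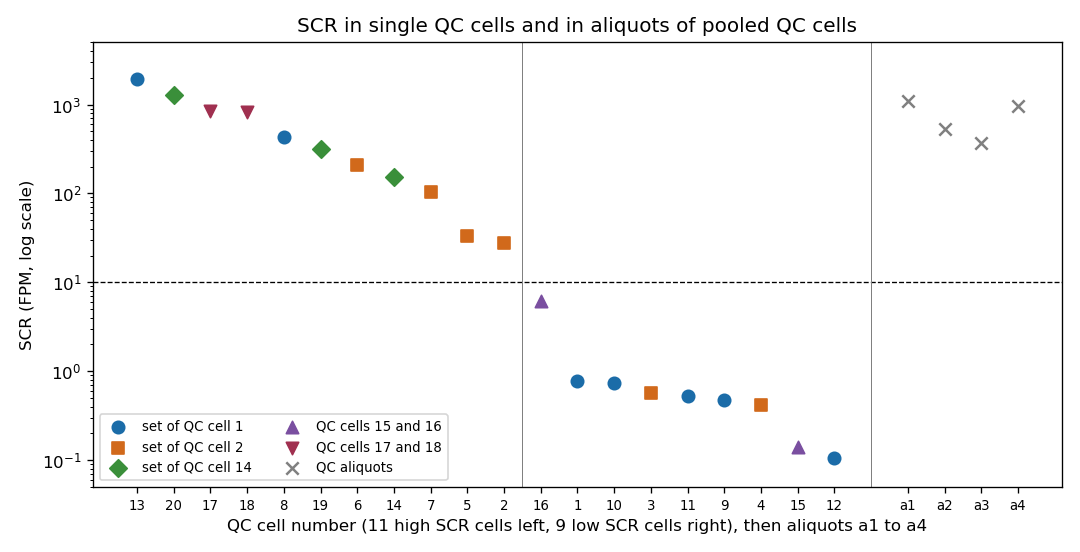
*SCR* in FPM (log axis) in each of 11 high SCR cells (left) and 9 low SCR cells (middle), each sorted by level, and in 4 aliquots of pooled QC cells (right). Symbols give the set of libraries and the dashed line is the level of 10 FPM that divided the cells. The high SCR cells lay between 27.6 and 1918 FPM and the low SCR cells between 0.106 and 6.13 FPM, with the aliquots at 365 to 1110 FPM.

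The level of *SCR* spanned 18017-fold over the 20 QC cells, against 3.04-fold over the 4 aliquots. The aliquots were fewer and deeper, at 83718007 to 127775758 reads, against a median of 16739666 over the QC cells. Their spread may thus understate the technical error of a single cell. High SCR cells had 27.6 to 1918 FPM with a median of 316, and low SCR cells had 0.106 to 6.13 FPM with a median of 0.527. In reads, this was 365 to 121099 in high SCR cells and 2 to 442 in low SCR cells. The cell just inside the level was QC cell 2, at 27.6 FPM, and the cell just outside was QC cell 16, at 6.13 FPM, a 4.51-fold step. These values made the groups and are a description alone.

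High and low SCR cells occurred side by side within the mixed sets. In the set of QC cell 1, the high SCR cells 8 and 13 were at 426 and 1918 FPM, whereas the 5 low SCR cells were at 0.106 to 0.779 FPM. In the set of QC cell 2, the high SCR cells were at 27.6, 33.1, 207 and 105 FPM, whereas cells 3 and 4 were at 0.568 and 0.412 FPM. Of the nearly alike pairs, cells 17 and 18 had 838 and 831 FPM, while cells 15 and 16 had 0.141 and 6.13 FPM, from 2 and 442 reads.

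Cells of both groups carried QC transcripts. *WOX5*, the homeobox gene whose promoter drives the reporter, was at 387 to 2235 FPM with a median of 1064 in high SCR cells, and at 124 to 3193 FPM with a median of 432 in low SCR cells. The highest level of all was in a low SCR cell, QC cell 3. *PLT3*, an AP2 transcription factor gene of the PLETHORA family that maintains the stem cell niche, was at 111 to 4911 FPM with a median of 2066 in high SCR cells and at 530.0 to 4513 FPM with a median of 1623 in low SCR cells. Neither gene divided the groups, and the high SCR cell had the higher value in 65.7% of the pairs of 1 high and 1 low SCR cell for *WOX5* and in 62.6% for *PLT3*. *AGL42*, a MADS-box gene known as a QC marker, was above 0 in QC cell 14 alone, at 0.374 FPM. The *GFP* row of the table was above 0 in 5 high SCR and 2 low SCR cells.

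Markers of the neighboring tissues were near absent from both groups. All 9 genes of endodermis differentiation, among them the *CASP* genes that build the Casparian strip, were at 0 in all 20 cells. Of the stele, epidermis and root cap markers, 6 of 8, 3 of 6 and 4 of 6 were at 0 in all 20. The summed level of the stele markers reached 22.5 FPM in high SCR cells and 0.0374 FPM in low SCR cells, that of the epidermis markers 3.11 FPM in high SCR cells and 162 FPM in low SCR cells, and that of the root cap markers 118 FPM in high SCR cells and 0.735 FPM in low SCR cells. The epidermis value in low SCR cells was *CPC*, a small MYB gene of hair patterning, in QC cell 10. The root cap value in high SCR cells was *PGM*, a gene of starch synthesis, at 61.1 to 118 FPM in QC cells 14, 17, 18 and 20. The part of these transcripts in the differences below was not tested.

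Most other members of the *SHR* and *SCR* pathway were too low to be compared. Of 13 members, 5 (*MGP*, *IDD4*, *SCL23*, *CYCD6;1* and *MYB36*) were at 0 in all 20 cells, and 3 passed the filter on low values used for the comparison across loci. *SHR* itself was above 0 in 1 high SCR cell, QC cell 18 at 0.0644 FPM, and in no low SCR cell. *JKD*, whose zinc-finger protein maintains *SCR* expression in the QC, was at 10 FPM or more in 5 of 11 high SCR cells and in 4 of 9 low SCR cells, with a highest level of 441 FPM in the high SCR cells and 891 FPM in the low SCR cells. The difference of its medians was -0.07 and turned with the *SCR* level that divided the cells, to 2.23 at 1 FPM and 4.52 at 100 FPM, so that no direction is given for it. *RBR1*, the retinoblastoma homolog whose protein binds SCR, reached 10 FPM in 3 high SCR cells (274, 284 and 70.1 FPM in cells 17, 18 and 20) and in the alike low SCR cells 15 and 16 (18.8 and 18.4 FPM). *IDD5*, a BIRD gene, was at 18.0 to 26.1 FPM in cells 14, 19 and 20 and at 0 in the other 17 cells.

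*SCL3*, a GRAS gene known as a direct target of SHR and SCR, was the 1 pathway member called of the 3 compared. Over all loci, 2.87% were called higher and 0.995% lower, and nothing is read from a count of 1. *SCL3* was at 0.139 to 486 FPM with a median of 239 in high SCR cells, and at 0 to 29.8 FPM with a median of 2.17 in low SCR cells. It reached 10 FPM in 8 of 11 high SCR cells and in 2 of 9 low SCR cells, and the ranges overlapped. Inside the set of QC cell 1 the high SCR cells had 239 and 121 FPM and the 5 low SCR cells had 0.0355 to 29.8 FPM, without overlap. Inside the set of QC cell 2, *SCL3* was at 240 and 198 FPM in high SCR cells 2 and 6 but at 0.494 and 0.139 FPM in high SCR cells 5 and 7, against 0.781 and 0.374 FPM in low SCR cells 3 and 4. The difference of medians was 6.24 on the scale of log2(FPM + 1), on which changes of low genes are understated. *SCL3* was no longer called, by the rule given next, without cells 17 and 18, or with library scaling by the median ratio, although the difference kept its sign. Nor was it called in the mixed sets alone. High SCR cell 20, with *SCR* at 1294 FPM, had *SCL3* at 1.38 FPM.

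Across the transcriptome, 5125 loci were compared, namely those at 10 FPM or more in at least 5 of the 20 QC cells, with *SCR* left out. A locus at 10 FPM or more in 1 group alone passed through that group, so that such a split is partly set by this filter. A locus was called where the medians of log2(FPM + 1) differed by at least 2 and the high SCR cell had the higher value in at least 80% of all 99 pairs of 1 high and 1 low SCR cell, or in at most 20% of them. By this rule 147 loci (2.87%) were higher and 51 loci (0.995%) were lower in high SCR cells. Of these, 92 (1.8% of the loci compared) were also higher inside both mixed sets, and 27 (0.527%) were also lower inside both. The mixed sets hold 13 of the 20 cells that made the calls, so that this overlap is partly built in. Among all loci compared, 27.0% were higher inside both mixed sets and 9.37% were lower inside both. In 1 locus (0.0195%), *PDV2*, every high SCR cell was above every low SCR cell, and in none (0%) was every high SCR cell below every low SCR cell. Over all loci compared, the median difference was 0.16 and 54.7% were higher by the median in high SCR cells.

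Both the scaling and the cells used moved this balance. With scaling by the median ratio over 1803 loci above 0 in every cell, 51 loci were higher and 96 lower in high SCR cells, so that 34.7% of calls were higher, against 74.2% with library totals. The median change of a locus's difference under this scaling was -0.36. All 147 and all 51 called loci kept the sign of their difference, but only 46 of the higher and 37 of the lower loci were called by both scalings. Each alike pair counted as 1 cell gave 171 higher and 48 lower loci. Without QC cells 3 and 4, 184 loci were higher and 192 lower, with 116 of the 147 and 46 of the 51 among them. Cells of a group also varied widely, with a median SD of 3.09 on the log2 scale within groups, against 1.63 over the 4 deeper aliquots. The difference exceeded 2 SD of the aliquots in 134 of the 198 called loci. These loci were selected for a difference of at least 2, so that this count is a description alone. In 104 of the 147 higher loci the median of the low SCR cells was at 1 FPM or less, and in 31 of the 51 lower loci that of the high SCR cells was.

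**Figure D2:**
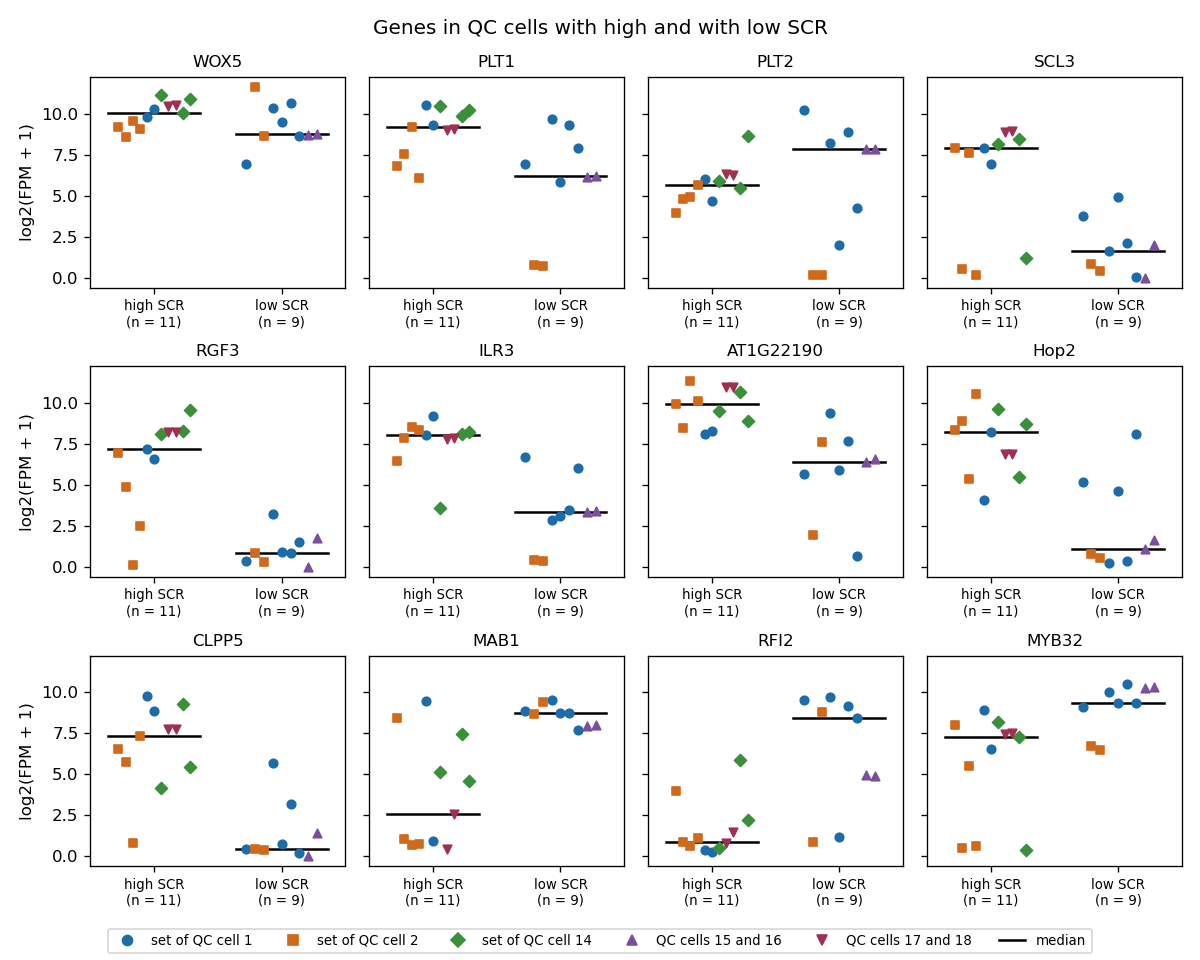
Level of 12 genes as log2(FPM + 1) in each of 11 high SCR cells (left in each panel) and 9 low SCR cells (right). Symbols give the set of libraries and the black line is the median. *ILR3*, *AT1G22190* and *Hop2* had higher medians in high SCR cells, and *MAB1*, *RFI2* and *MYB32* in low SCR cells, with overlapping ranges in all 6.

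Among the loci higher in high SCR cells and inside both mixed sets, 10 were selected by the share of pairs. *ILR3*, a bHLH transcription factor gene of iron homeostasis, was at 11.0 to 577 FPM with a median of 258 in high SCR cells, and at 0.300 to 106 FPM with a median of 9.16 in low SCR cells. Inside the set of QC cell 2 it was at 86.1, 234, 375 and 326 FPM in the high SCR cells and at 0.355 and 0.300 FPM in the low SCR cells. Inside the set of QC cell 1 it was at 258 and 577 FPM in the high SCR cells and at 6.45 to 106 FPM in the low SCR cells. In neither set did the groups overlap, and the difference of medians over all cells was 4.67. *AT1G22190*, which encodes an AP2/ERF transcription factor, was at 274 to 2536 FPM with a median of 973 in high SCR cells, and at 0.603 to 679 FPM with a median of 83.9 in low SCR cells. Its difference was 3.52, with an SD of 1.16 among high SCR cells, 2.78 among low SCR cells and 0.19 over the aliquots, which had 1134 to 1483 FPM. A single low SCR cell, QC cell 9, was above several of the high SCR cells.

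Genes of plastids and of central metabolism were also among these 10. *PDV2*, a gene of plastid division, was at 0.681 to 550 FPM with a median of 30.3 in high SCR cells and at 0 to 0.293 FPM with a median of 0.0828 in low SCR cells. The groups did not overlap, but only 8 of 11 high SCR cells reached 10 FPM, and with values under 1 FPM set to 0 the share of pairs was 95.5%. The aliquots, with *SCR* at 365 to 1110 FPM, had *PDV2* at 0.00924 to 4.51 FPM, a range that reached into that of the low SCR cells. *CLPP5*, a subunit of the plastid Clp protease, was at 0.733 to 873 FPM with a median of 158 in high SCR cells and at 0 to 50.7 FPM with a median of 0.355 in low SCR cells. *G6PD6*, a cytosolic glucose-6-phosphate dehydrogenase, was at 10 FPM or more in 10 of 11 high SCR cells and in 3 of 9 low SCR cells, with medians of 231 FPM in high SCR cells and 0.355 FPM in low SCR cells. *DHAR1*, a dehydroascorbate reductase, was at 10 FPM or more in 5 of 11 high SCR cells and in no low SCR cell. Its high SCR cell was above in 98.0% of pairs, but the call was lost with values under 1 FPM set to 0.

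The remaining 4 of the 10 were of mixed function. *Hop2*, a co-chaperone of HSP70 and HSP90, was at 15.7 to 1474 FPM with a median of 302 in high SCR cells and at 0.204 to 271 FPM with a median of 1.20 in low SCR cells. *LYM1*, a LysM-domain protein of the cell surface, was at 2.68 to 715 FPM with a median of 54.5 in high SCR cells and at 0 to 16.8 FPM with a median of 0.243 in low SCR cells. *AT1G09645* and *AT5G47210* had medians of 23.4 and 13.4 FPM in high SCR cells and of 0.195 and 0.142 FPM in low SCR cells. *AT1G09645* was no longer called without the set of QC cell 1 or without cells 17 and 18, and was not compared with the other scaling. *AT5G47210* was no longer called without the set of QC cell 14 or with the other scaling.

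The 10 loci lower in high SCR cells and inside both mixed sets were selected in the same way. *MAB1*, the beta subunit of mitochondrial pyruvate dehydrogenase, was at 10 FPM or more in 5 of 11 high SCR cells and in all 9 low SCR cells. It was at 0.364 to 703 FPM with a median of 5.11 in high SCR cells, and at 205 to 736 FPM with a median of 423 in low SCR cells. High SCR cells were uneven, since cells 5, 6, 7, 13 and 17 had at most 1.12 FPM, while cells 2 and 8 had 349 and 703 FPM, within the range of the low SCR cells. The aliquots ranged from 2.21 to 131 FPM. *RFI2*, a RING-domain protein gene named for reduced responses to red and far-red light, was at 0.188 to 58.7 FPM with a median of 0.853 in high SCR cells and at 0.851 to 818 FPM with a median of 349 in low SCR cells. *PES1*, a phytyl ester synthase of plastids, was at 10 FPM or more in no high SCR cell and in 6 low SCR cells.

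*MYB32* and *MYB7*, paralogous R2R3 MYB genes that repress phenylpropanoid synthesis, were both among the 10 lower loci. *MYB32* was at 0.320 to 478 FPM with a median of 156 in high SCR cells and at 87.4 to 1423 FPM with a median of 652 in low SCR cells, a difference of -2.06. *MYB7* was at 0 to 30.1 FPM with a median of 7.77 in high SCR cells and at 5.11 to 90.4 FPM with a median of 39.2 in low SCR cells, a difference of -2.20. The study describes reads that matched several places as counted in part at each, so that paralogs may share them. This bears most on *XDH1* and *XDH2*, neighboring copies of xanthine dehydrogenase: *XDH1* had medians of 0.0693 FPM in high SCR cells and 28.3 FPM in low SCR cells, *XDH2* had medians of 0 FPM in high SCR cells and 10.1 FPM in low SCR cells, and they were high in the same cells. *XDH2* was no longer called with values under 1 FPM set to 0 or without the set of QC cell 1. *ENDO2*, a bifunctional nuclease, had medians of 0.0815 FPM in high SCR cells and 23.0 FPM in low SCR cells. *AT1G04990* and *AT5G18310* had medians of 58.0 and 0.125 FPM in high SCR cells and of 254 and 31.1 FPM in low SCR cells.

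Few calls outlasted the loss of any 1 set of libraries. When each of the 5 sets was left out in turn, 23 of the 147 higher loci were called every time, and 3 of the 51 lower loci. The 23 included *ILR3*, *AT1G22190*, *CLPP5*, *LYM1*, *Hop2*, *PDV2* and *G6PD6*, and, named after their values were seen, *BRM*, *HA1*, *TUB7* and *BEH2*. *HA1*, a plasma membrane proton ATPase, was at 8.58 to 1840 FPM with a median of 357 in high SCR cells and at 1.12 to 711 FPM with a median of 30.8 in low SCR cells. *BRM*, a chromatin remodeling ATPase, had medians of 110 FPM in high SCR cells and 0.665 FPM in low SCR cells. *TUB7*, a beta-tubulin gene of a family that may share reads, had medians of 224 FPM in high SCR cells and 21.7 FPM in low SCR cells, with an SD of 0.18 over the aliquots. *BEH2*, a homolog of the brassinosteroid response factor BES1, had medians of 248 FPM in high SCR cells and 0.663 FPM in low SCR cells. The 3 lower loci were *MAB1* and, also named after their values were seen, *TEM1*, a RAV transcription factor gene that delays flowering, and *PCR2*, a gene of heavy metal transport. *TEM1* had medians of 5.05 FPM in high SCR cells and 517 FPM in low SCR cells, and *PCR2* had medians of 2.51 FPM in high SCR cells and 140.4 FPM in low SCR cells. Only 12 of the 51 lower loci were still called without the set of QC cell 1, whereas 127 of the 147 higher loci were. Without the set of QC cell 2, 70 of the 147 were still called.

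Of 20 further regulators of the stem cell niche, 12 were compared and 1 was called, *RGF3*, higher in high SCR cells. With calls in 2.87% (higher) and 0.995% (lower) of all loci, nothing is read from a count of 1. The median difference of the 12 was 0.86, against 0.16 over all loci, with 8 above 0 and 3 below, and with scaling by the median ratio it was 0.10, against 0 over all loci. *RGF3*, a gene for a secreted root meristem growth factor peptide that raises PLETHORA levels, was at 0.0815 to 751 FPM with a median of 143 in high SCR cells, and at 0 to 8.28 FPM with a median of 0.851 in low SCR cells. It was at 10 FPM or more in 9 of 11 high SCR cells and in no low SCR cell. High SCR cells 6 and 7 had 0.0815 and 4.71 FPM. The call held without each of the 5 sets and with both scalings, but *RGF3* was not compared in the mixed sets alone. In the aliquots, where *SCR* was at 365 to 1110 FPM, *RGF3* was at 1.16 to 14.0 FPM, well under the median of the high SCR cells.

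*PLT1* was at 68.5 to 1473 FPM with a median of 594 in high SCR cells and at 0.674 to 824 FPM with a median of 71.6 in low SCR cells. Its difference of 3.04 was large enough for a call, while 78.8% of pairs were just too few. *PLT2*, the closest paralog of *PLT1*, ran the other way in the medians, at 14.6 to 402 FPM with a median of 50.04 in high SCR cells and at 0.142 to 1177 FPM with a median of 226 in low SCR cells. *PLT2* was at 10 FPM or more in all 11 high SCR cells and in 6 of 9 low SCR cells, and the direction differed between sets, at 4.65 in the set of QC cell 2 and -1.39 in the set of QC cell 1. Its difference of -2.16 was -0.25 with *SCR* divided at 1 FPM and 1.10 at 100 FPM, was 1.66 without the set of QC cell 1 and 1.40 without cells 15 and 16, and therefore had no stable direction. With the other scaling the small difference of *PLT3* was -0.13 in place of 0.35, while those of *PLT1* and *PLT2* kept their signs. *BBM*, a further PLETHORA family gene, was at 20.0 to 1072 FPM with a median of 254 in high SCR cells and at 2.13 to 1063 FPM with a median of 503 in low SCR cells. Both *PLT1* and *PLT2* were under 1 FPM in QC cells 3 and 4. *WIP4*, a zinc-finger gene needed with its relatives to start a root meristem, had medians of 224 FPM in high SCR cells and 25.9 FPM in low SCR cells and reached 10 FPM in 9 of 11 high SCR and 6 of 9 low SCR cells, with a difference of 3.07 and 76.8% of pairs. *BRAVO*, a MYB gene that restrains QC division, had medians of 418 FPM in high SCR cells and 310.2 FPM in low SCR cells.

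Genes of auxin transport, synthesis and response varied in both directions, from -5.15 for *ARF5* to 8.05 for *YUC3*, with a median of 0.65 over the 9 compared of 22, and none of these was called. Nothing is read from that for 9 genes, as 2.87% (higher) and 0.995% (lower) of all loci were called. *PIN4*, a carrier gene expressed around the QC, reached 10 FPM in 6 high SCR cells and in no low SCR cell, but in 70.7% of pairs the high SCR cell was above. Apart from QC cell 8, these were cells 14, 17, 18, 19 and 20, outside the mixed sets. In every cell of the set of QC cell 2, *PIN4* was at 0. *TAA1*, which makes the first product of auxin synthesis, was at medians of 1268 FPM in high SCR cells and 808 FPM in low SCR cells.

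Of 23 jasmonate and wound response genes 12 were compared, and of 10 housekeeping genes 9 were, with median differences of 0.20 and 0.11. None was called in either direction, and with calls in 2.87% (higher) and 0.995% (lower) of all loci, nothing is read from that for so few genes. *ZAT12*, a stress-induced zinc-finger gene, had medians of 2299 FPM in high SCR cells and 1101 FPM in low SCR cells. *JAZ1*, a jasmonate repressor gene, had medians of 547 FPM in high SCR cells and 463 FPM in low SCR cells. *UBQ10*, a polyubiquitin gene, had medians of 7421 FPM in high SCR cells and 8998 FPM in low SCR cells.

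None of 11 loci compared from the 24 QC markers of the study's own marker table, a list the study built from other profiles, was called, with a median difference of 0.29. At the shares of 2.87% and 0.995% over all loci, nothing is read from that count. The number of these 24 markers at 10 FPM or more per cell was 7 to 20 with a median of 9 in high SCR cells, and 1 to 10 with a median of 8 in low SCR cells. The upper end came from QC cells 14 and 20, with 18 and 20 markers, and the lower end from QC cells 3, 4 and 10, with 3, 1 and 3. Of the 20 endodermis markers of that table, 17 were at 0 in all cells. The 1 compared, *AT1G60690*, had medians of 3.29 FPM in high SCR cells and 51.4 FPM in low SCR cells, with overlap, and was called lower only with the other scaling.

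**Figure D3:**
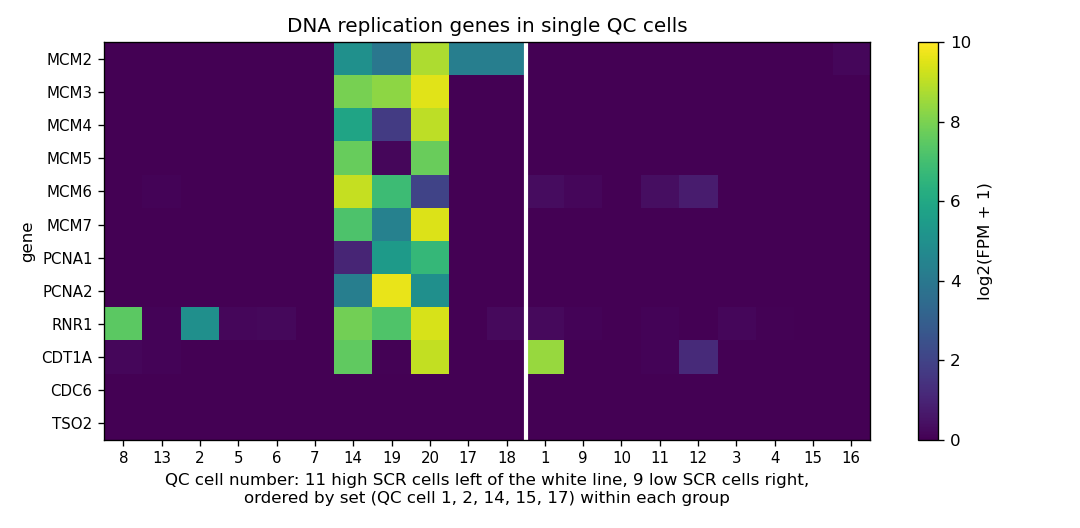
Level of the 12 DNA replication genes of the cell cycle list, as log2(FPM + 1) by color, in 11 high SCR cells (left of the white line) and 9 low SCR cells (right), ordered by set of libraries within each group. *MCM3* and *MCM7* were at 10 FPM or more in QC cells 14, 19 and 20 alone. *CDC6* and *TSO2* were at 0 in all 20 cells, and *CDT1A* was at 350.1 FPM in low SCR cell 1, the only low SCR cell at 10 FPM or more in any of the 12.

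Several genes of DNA replication were high in the set of QC cell 14. Of 40 cell cycle genes, 16 were at 0 in all 20 cells and 3 were compared, with none called. For 3 genes nothing is read from that, as 2.87% (higher) and 0.995% (lower) of all loci were called. The number of the 40 genes at 10 FPM or more was 13, 9 and 14 in QC cells 14, 19 and 20, at most 2 in the other high SCR cells and at most 3 in low SCR cells. Among these 40 genes, the 12 of replication were singled out after their values were seen. *MCM2* to *MCM7* encode the subunits of the replicative helicase, and their summed level was 1230, 462 and 2621 FPM in cells 14, 19 and 20. Of the 6 genes, 6, 4 and 5 were at 10 FPM or more in these cells. In the other 8 high SCR cells the sum was at most 18.5 FPM, reached by *MCM2* in the alike cells 17 and 18, and in the 9 low SCR cells it was at most 0.674 FPM.

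*PCNA2*, a sliding clamp gene, was at 18.6, 803 and 31.0 FPM in cells 14, 19 and 20 and at 0 in the other 17. *RNR1*, the large subunit of ribonucleotide reductase, was spread over more sets, at 30.5 and 178 FPM in high SCR cells 2 and 8 as well as 235, 150 and 671 FPM in cells 14, 19 and 20, and at most 0.195 FPM in low SCR cells. *MCM2* was at 10 FPM or more in 5 of 11 high SCR cells and no low SCR cell, as was *RNR1*. Both passed the filter of 5 of the 20 QC cells through high SCR cells alone, so that nothing is read from this split. *CDT1A*, a gene of replication licensing, was an exception, at 187 and 534 FPM in high SCR cells 14 and 20 and at 350.1 FPM in low SCR cell 1. *CDC6*, a licensing gene, and *TSO2*, the small subunit of ribonucleotide reductase, were at 0 in all 20 cells. Genes of mitosis and cyclins were high in cells of both groups. *AUR1* and *AUR2*, Aurora kinase genes, were at 85.5 and 86.4 FPM (*AUR1*) in high SCR cells 17 and 18 and at 279 FPM (*AUR2*) in high SCR cell 20, against at most 1.43 and 0 FPM in low SCR cells. *CYCA2;3*, a cyclin gene, was at 110.3 and 181 FPM in high SCR cells 14 and 20 and at most 7.35 FPM in low SCR cells. *CDKB2;1*, a mitotic kinase gene, was at most 4.20 FPM in high SCR cells and at 264 and 259 FPM in low SCR cells 15 and 16. *KNOLLE*, a cytokinesis syntaxin gene, was at most 4.64 FPM in high SCR cells and at 39.0 FPM in low SCR cell 1. Inside the set of QC cell 2 all of *MCM2* to *MCM7* were at 0 in every cell. The genes above 0 in this set all lie in the list of QC cell 2, which lacks these genes. Likewise, the genes above 0 in the set of QC cell 1 all lie in the list of that cell, which holds *MCM6* alone of these. Neither mixed set can therefore set high against low SCR cells for the other *MCM* genes or for *PCNA2*. A 0 need not be a count of 0 reads, since the authors removed genes with little coverage. Reads of amplified cDNA are also not separate molecules, so that no upper limit is given. Since the set of QC cell 14 has no low SCR cell, its replication genes and its *SCR* level cannot be told apart from the set.

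**Figure D4:**
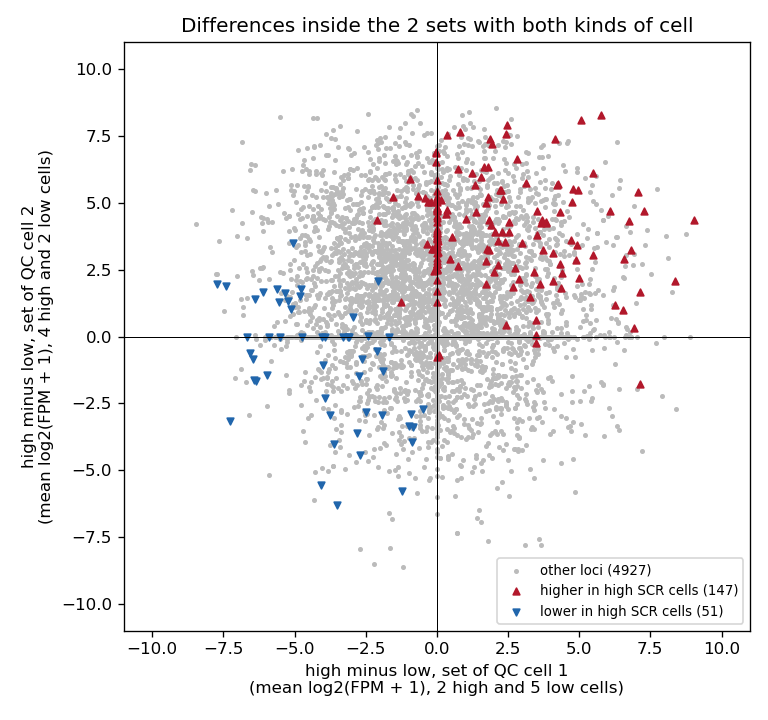
Difference of mean log2(FPM + 1), high minus low SCR cells, inside the set of QC cell 1 (horizontal axis) and inside the set of QC cell 2 (vertical axis), for 5125 loci. Red and blue triangles are the 147 higher and 51 lower loci, which were called with these same cells, and gray points are all others. Over all loci the differences in the 2 sets had a Pearson correlation of -0.02.

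The mixed sets gave a comparison of cells that share a gene list, and they hold different cells. Across the 5125 loci, the difference between high and low SCR cells in the set of QC cell 2 had a Pearson correlation of -0.02 with that in the set of QC cell 1, a description over loci whose values within a set come from the same libraries. Both differences were above 0 in 27.0% of all loci and below 0 in 9.37%. Loci without overlap and at least 2 apart in the set of QC cell 2 were read again in the set of QC cell 1: of 794 higher loci, 43.8% were higher there as well, against 41.8% of all loci, and of 68 lower loci, 35.3% were lower, against 46.7%. In the reverse direction, of 188 higher loci of the set of QC cell 1, 67.6% were higher in the set of QC cell 2, against 63.8% of all loci, and of 204 lower loci, 19.1% were lower, against 20.4%. These shares lay near those of all loci, apart from the 68 lower loci, which were below it.

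The same was seen in the cells outside the mixed sets. Of the 3028 loci compared among the 6 high and 7 low SCR cells of the mixed sets alone, 154 were higher and 63 lower by the same rule. Read in the other 7 cells, of which 5 were high SCR and 2 low SCR, 65 of the 154 (42.2%) were higher, against 46.5% of all loci, and 35 of the 63 (55.6%) were lower, against 51.5%. In all, 40 higher and 17 lower loci were called both over all 20 cells and within the mixed sets, comparisons that share 13 cells. They included *PDV2*, *ILR3*, *AT1G22190*, *CLPP5*, *LYM1*, *G6PD6* and *Hop2* among the higher loci, and *MAB1*, *RFI2*, *MYB7* and *MYB32* among the lower.

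The genes most alike to *SCR* in rank over the 20 QC cells were *AT1G09645* (Spearman's rho 0.88), *LYM1* (0.85), *PDV2* (0.83), *ILR3* (0.79) and *AT5G47210* (0.79). All 5 were also among the 10 higher loci above, as the same cells and the same level of *SCR* enter both measures. The cells of a set share a gene list and the alike pairs count as separate cells, so that these values describe the libraries. *RGF3* had a rho of 0.73, *SCL3* of 0.65, *PLT1* of 0.53 and *WOX5* of 0.42. *JKD* was at 0.02 and *BBM* at -0.25.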

How the data were processed

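The deposited table holds log2 values that the authors made from 50-bp single-end reads of amplified cDNA: alignment with Bowtie2 to TAIR10, reads on annotated exons summed per gene, multiply aligned reads counted in part, genes with little coverage removed, division by library depth, and log2 of the value plus 1. Aligner version and depth factors are not given in the sources used here. Genes were not scaled by length, so that levels were not compared between genes.

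The log2 transformation was undone and whole counts were recovered as multiples of each library's smallest step, taken as 1 read (largest deviation 3.79e-06 reads). The study describes partial counts for multiply aligned reads, which need not fall on whole steps. Whether a step is 1 read, or the table holds no partial counts, was not settled. Counts given in reads assume the former, while FPM values do not depend on it. The study does not say whether coverage was judged per library. Reads were scaled to FPM over 32678 loci, without the CFP and GFP rows, and 1 FPM was added before log2. Cells were grouped by *SCR* at 10 FPM. The QC cells, the level, the gene lists and the rules were chosen with earlier results of these data known. Sets were defined from nested gene lists, and alike pairs by a median chi-square under 10 over genes with at least 20 reads. Named genes were *SCR*, the *SHR* and *SCR* pathway list, *WOX5*, *PLT1*, *PLT2*, *PLT3* and *BBM*, the 10 called loci in each direction with the most extreme share of pairs that held in both mixed sets, called members of the lists, and the 5 loci with the highest rho. List members not called are given as examples, and 1 gene of the auxin list is not reported here. Gene symbols came from RefSeq's annotation, with an entry for 31912 loci.

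Alternatives were *SCR* at 1 and 100 FPM, pseudocounts of 0.1 and 10 FPM, no filter, median-ratio scaling, thinning, alike pairs as 1 cell, and each set left out. The mixed sets alone, values under 1 FPM set to 0, and the omission of QC cells 3 and 4 were chosen after seeing the data. The code was tested on simulated data. Software versions were matplotlib 3.10.9, scipy 1.17.1, pandas 2.3.3, numpy 2.4.6 and Python 3.11.15. Differences between cells include amplification error.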

Additional observations from a re-analysis of the deposited data

Results flagged for a closer look

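In 32 sets of values over the 9 low SCR cells, 1 value was looked for that lay far from the rest, which chance gives in about 1 in 20 groups. There were 4. *SCR* was at 2.83 on the log2(FPM + 1) scale in QC cell 16, the cell just under the level that divided the groups, which was also the deepest low SCR library at 72145275 reads. *AT1G09645* was at 1.54 in QC cell 10, above the other low SCR cells though still low. *AT1G04990* was at 1.36 in QC cell 4, below the other low SCR cells. Inside the pair of nearly alike libraries, *SCR* differed between QC cells 15 and 16 while it was alike in QC cells 17 and 18. The cause of these values was not tested.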

How the results depend on the processing

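The counts of 147 higher, 51 lower, 92 higher and 27 lower inside both mixed sets stayed within 1.5 times with a pseudocount of 0.1 FPM, without the filter, after thinning, with alike pairs as 1 cell, and with values under 1 FPM set to 0. With *SCR* at 1 FPM only the last moved, to 17. With *SCR* at 100 FPM the 4 counts were 81, 80, 61 and 58, and with the median ratio 51, 96, 32 and 80. A pseudocount of 10 FPM gave 85 higher and 33 lower, with 15 lower inside both sets. Without QC cells 3 and 4, 192 were lower, 173 of them also inside the set of QC cell 1. The mixed sets alone gave 149 higher and 45 lower inside both. With each set of libraries left out in turn, the counts ranged from 135 to 534 higher, 66 to 245 lower, 97 to 529 higher inside the sets that remained and 37 to 223 lower inside them. The number of loci compared changed as well, to 3991 with the median ratio, 3028 for the mixed sets and 3889 to 4566 with a set left out. The cause of these changes was not tested. Of 464 recomputed differences of 29 named genes over 16 settings, 424 moved by less than the SD within groups, 40 moved by more, and none (0) of the called ones changed sign. Among those not called, *PLT2* (-2.16) was 1.10 at *SCR* of 100 FPM, 1.66 and 1.40 without the sets of QC cells 1 and 15 and 0.60 in the mixed sets, *JKD* (-0.07) was 2.23 and 4.52 at *SCR* of 1 and 100 FPM, *WOX5* (1.30) was -0.10 in the mixed sets, and *PLT3* (0.35) was -0.13 with the median ratio. Precision is limited by the 11 and 9 cells, by amplification and by depth.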
